A study of Mus musculus with 3 samples.

Results

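The endothelial glycocalyx genes described here are 10 genes for the proteins and enzymes that build the sugar coat of endothelial cells, taken by gene symbol from a table of 17583 genes. They are the syndecans Sdc2, Sdc3 and Sdc4, the glypicans Gpc1 and Gpc6, the sialomucins Podxl, Emcn and Cd34, and the heparan sulfate enzymes Ext1 and Ndst1. All 10 symbols were found in the table, each in a single row, and the rule uses no measured value.

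The glycocalyx is a layer of glycoproteins and proteoglycans on the luminal side of blood vessels that takes part in barrier function, sensing of flow and control of leukocyte adhesion. Syndecans cross the membrane and glypicans are held to it by a lipid anchor, and both carry chains of heparan sulfate, which bind growth factors such as VEGF and FGF. Sialomucins carry dense, sialylated O-glycans and are strongly negative in charge. Heparan sulfate is polymerised in the Golgi apparatus by the EXT1/EXT2 complex and is then modified by N-deacetylase/N-sulfotransferases such as NDST1 and by further sulfotransferases.

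The RNA came from the hearts of 3 EC-RiboTag mice with the genotype Cdh5-CreERT2;Rpl22tm1.1Psam. In these animals tamoxifen switches on a Cre recombinase under the control of the VE-cadherin gene, and endothelial cells then make RPL22, a protein of the large ribosomal subunit, with an HA epitope. Tagged ribosomes were precipitated from heart homogenates and their RNA was sequenced. All 3 libraries belong to 1 group, and as neither input RNA nor an untagged control was analysed, each value is a level in the precipitate, not an enrichment, and no condition was compared with another. According to the labels the hearts were taken on day 7 of an infarct made by tying off a coronary artery, but the paper's methods for this experiment mention no infarction. The labels state neither age nor sex. The titles contain Rz, which the labels do not define. The paper writes RZ for the remote zone, the muscle away from the infarct, and in a separate qRT-PCR experiment it used that zone of EC-RiboTag hearts at the same time point, but its account of the sequencing names no zone. The Cdh5 promoter is active in endothelium at large, including that of lymphatic vessels and the endocardium.

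The deposited values, called normalized counts here, are read counts scaled by library with DESeq2 size factors and then rounded by the authors. They summed to between 7149102 and 7268785 per library, and the rounding pattern placed the depth at about 6755000 to 7565000 reads. All 12 endothelial markers examined were present, with summed normalized counts between 30398 and 31848. The 10 cardiomyocyte markers summed to between 20679 and 24237, and the 8 fibroblast markers to between 2881 and 3767. Sums lay between 2512 and 2752 for the 8 mural markers and between 447 and 681 for the 7 leukocyte markers listed of 8. The 6 mesothelial markers summed to between 941 and 1191, mostly from Wt1 with 871, 1055 and 939 in mice 1, 2 and 3. In such bulk RNA fewer cells of a type and less RNA per cell cannot be told apart, and RNA of other cell types was not separated from that of endothelial cells. Levels of different genes are compared as normalized counts per kb of canonical transcript unless another length or measure is named. The ranks of Podxl, Cd34 and Sdc3 among all 17583 genes below go by mean normalized count, without regard to length. Per kb of canonical transcript their ranks were 205, 39 and 1478 among the 14395 genes with a length and a mean of at least 10.

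The sialomucins led these genes in level per kb of canonical transcript, an order that changed with the length used, and their CV between mice was at most 4.37%. Podxl (ENSMUSG00000025608) encodes podocalyxin, a CD34-family sialomucin, and lies at 31496423 to 31540916 of chromosome 6 (minus strand) in the build GRCm39, with 8 exons in its canonical transcript. Its normalized counts were 3495, 3463 and 3381 in mice 1, 2 and 3, a mean of 3446 ± 58.8 (SD, n = 3), which placed it at rank 25 of all 17583 genes. The values lay within a factor of 1.03 of each other. The CV between mice was 1.71%, against 1.70% from counting alone, a value that takes no account of the authors' removal of duplicate reads. Cd34 (ENSMUSG00000016494), which encodes the sialomucin that also marks haematopoietic progenitors, lies at 194621127 to 194643587 of chromosome 1 (plus strand) and has 8 exons. It had 2012, 2165 and 2006 normalized counts, a mean of 2061 ± 90.1 (SD, n = 3) and rank 212, with mouse 2 slightly above the others. Emcn (ENSMUSG00000054690) encodes endomucin, a sialomucin of capillary and venous endothelium, at 137046828 to 137137946 of chromosome 3 (plus strand), in 12 exons. Its normalized counts of 1258, 1194 and 1173 gave a mean of 1208 ± 44.3 (SD, n = 3).

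Per kb of canonical transcript, Cd34 had the highest level of the 10 genes with 835 ± 36.5 normalized counts per kb (SD, n = 3), followed by Podxl with 639 ± 10.9 and Emcn with 461 ± 16.9. All of them were in the top 10% per kb, ranked among genes of known length whose mean was 10 or more, and the next member, Sdc3, was just outside at 363 against a limit of 366. By definition 10.0% of the 14395 genes lie above this limit, against 3 of the 10 members. The calls of Cd34 and Emcn depend on the length. Over all annotated exons they ranked 1930 and 1718, outside the top 1439, and Podxl and Sdc3 were the 2 members in the top 10%, whereas over coding sequence Cd34, Podxl, Emcn and Sdc3 were all in it. The median per kb was 217 over the members and 106 over all of these genes. Per kb of canonical transcript, Cd34 exceeded each of the 12 endothelial markers, Podxl exceeded 4 of them and Emcn exceeded 1. For Cd34 this did not hold over all annotated exons, by which it had 172 per kb. The marker Cldn5, with 1416 bases by either length, had 709 per kb, and the other markers were not compared over all annotated exons. A high level per kb was not particular to endothelial genes. Of the 10 cardiomyocyte markers 6 were in the top 10% per kb of canonical transcript, against 11 of the 12 endothelial markers. The median per kb was 565 for the cardiomyocyte and 690 for the endothelial markers. Within mice, the log2 ratio of Podxl to Cd34 per kb was -0.33, -0.45 and -0.37, and that of Emcn to Cd34 was -0.76, -0.95 and -0.86. The order of Podxl and Cd34 rests on the transcript length. Over all annotated exons, which span 11961 bases for Cd34 and 5512 for Podxl, the log2 ratio of Podxl to Cd34 was 1.86, and over coding sequence it was 0.35. Cd34 also reached 0.835 normalized counts per base of canonical transcript, above the 99th percentile of 0.686 over all genes, and Podxl reached 0.639. The authors removed duplicate reads, which keeps about 1 single-end read per start position of a library. The part of this step in these levels and in their spread between mice was not tested.

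The start regions of the 4 genes with the highest level per kb of canonical transcript are shown, and they differed in base composition. Each window holds 250 bases before and 50 bases from the annotated start of the canonical transcript in GRCm39, written 5′ to 3′ on the strand of the gene, with CG dinucleotides in capitals. The windows are chr1:194620877-194621176 for Cd34 (plus strand), chr6:31540875-31541174 for Podxl (minus strand), chr3:137046544-137046843 for Emcn (plus strand) and chr4:130519598-130519897 for Sdc3 (plus strand).
Cd34: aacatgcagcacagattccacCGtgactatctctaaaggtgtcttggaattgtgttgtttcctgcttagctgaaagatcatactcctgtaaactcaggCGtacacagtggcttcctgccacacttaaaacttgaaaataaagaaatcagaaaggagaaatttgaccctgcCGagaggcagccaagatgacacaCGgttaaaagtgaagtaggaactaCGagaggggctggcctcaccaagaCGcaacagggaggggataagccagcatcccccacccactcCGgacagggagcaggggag
Podxl: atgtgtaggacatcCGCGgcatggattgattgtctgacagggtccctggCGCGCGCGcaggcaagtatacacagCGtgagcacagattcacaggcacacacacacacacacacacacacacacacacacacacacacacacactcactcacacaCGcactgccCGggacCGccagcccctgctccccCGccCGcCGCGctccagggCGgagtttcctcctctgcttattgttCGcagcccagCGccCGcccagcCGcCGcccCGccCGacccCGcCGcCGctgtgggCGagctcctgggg
Emcn: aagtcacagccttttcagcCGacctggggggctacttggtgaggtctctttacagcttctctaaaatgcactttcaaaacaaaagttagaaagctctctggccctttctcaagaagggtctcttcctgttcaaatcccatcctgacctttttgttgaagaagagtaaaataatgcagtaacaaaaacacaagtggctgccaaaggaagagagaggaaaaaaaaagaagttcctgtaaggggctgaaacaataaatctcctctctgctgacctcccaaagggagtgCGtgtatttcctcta
Sdc3: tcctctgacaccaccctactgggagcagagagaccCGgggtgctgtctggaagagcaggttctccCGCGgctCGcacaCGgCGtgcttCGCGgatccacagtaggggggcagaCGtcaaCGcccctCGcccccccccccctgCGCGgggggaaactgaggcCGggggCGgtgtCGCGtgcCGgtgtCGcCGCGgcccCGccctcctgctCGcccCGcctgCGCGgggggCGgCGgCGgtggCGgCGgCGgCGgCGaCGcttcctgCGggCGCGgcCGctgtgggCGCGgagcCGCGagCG

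The windows of Emcn and Cd34 held 2 and 7 CG dinucleotides and had a GC content of 43.3% and 49.7%. That of Podxl held 26 with 66.3% GC, and that of Sdc3 held 44 with 77.7% GC. Over the start windows of 14236 protein-coding genes of the table, the median was 16 CG dinucleotides and 58% GC. The 3 sialomucin genes thus lay on both sides of this median. Among the other members the count of CG dinucleotides was 3 for Sdc2, 13 for Sdc4, 17 for Gpc6, 19 for Gpc1, 33 for Ndst1 and 47 for Ext1, so that counts above the median occurred at high levels, as in Podxl, and at low ones, as in Gpc1 and Gpc6. The letters GGAA, the core of sites for ETS factors, were searched on both strands and occurred in each of the 10 windows, but also in 96.2% of all windows. The GC box GGGCGG, searched on both strands, occurred in 6 of the 10 windows, with 5 copies at Podxl and none at Cd34 or Emcn, and in 56.1% of all windows. TATAAA, searched on both strands, was present in 1 member, Sdc4, and in 8.44% of all windows. A match of letters is a description and not a bound site, and which start is used in these cells was not measured.

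**Figure D1:**
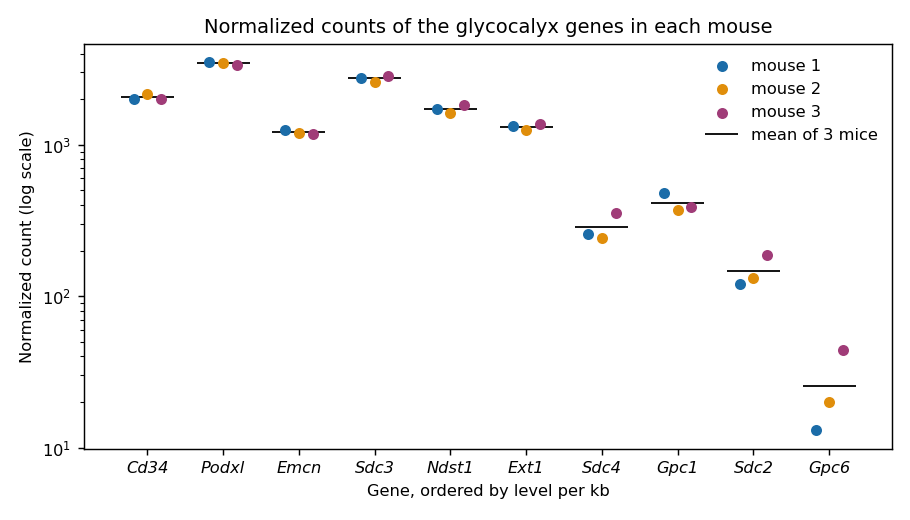
Normalized counts on a log scale for the 10 genes, ordered by level per kb, with 1 point per mouse and a line at the mean of the 3 mice. Podxl lay between 3381 and 3495 in the 3 mice, whereas Gpc6 ranged from 13 to 44.

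The syndecans were led by Sdc3, while Sdc2 and Sdc4 were much lower. Sdc3 (ENSMUSG00000025743) encodes syndecan-3, the family member best known from the nervous system, at 130519848 to 130553630 of chromosome 4 (plus strand). Its normalized counts were 2774, 2611 and 2851, a mean of 2745 ± 123 (SD, n = 3) and rank 59 of all genes, and its CV was 4.46%. Sdc4 (ENSMUSG00000017009) encodes syndecan-4, which acts at focal adhesions, at 164266167 to 164285807 of chromosome 2 (minus strand). It had 258, 243 and 354 normalized counts, a mean of 285 ± 60.2 (SD, n = 3), and mouse 3 lay above both other mice. Sdc2 (ENSMUSG00000022261) encodes syndecan-2 at 32920869 to 33035081 of chromosome 15 (plus strand). Its values of 121, 131 and 186 normalized counts gave a mean of 146 ± 35 (SD, n = 3), again with mouse 3 highest. Each of the 3 genes has 5 exons in its canonical transcript.

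Per kb of canonical transcript, Sdc3 had 363 ± 16.2 normalized counts per kb (SD, n = 3), Sdc4 had 103 ± 21.9 and Sdc2 had 39.5 ± 9.47. Sdc1, the remaining syndecan gene, which is not among the 10, had 427, 445 and 484 normalized counts and a level of 141 ± 9.09 per kb (SD, n = 3). Sdc3 therefore made up 58.6%, 56.8% and 53.3% of the level per kb of the 4 syndecans in mice 1, 2 and 3. Sdc1 made up 21.8% ± 0.88, Sdc4 15.9% ± 2.00 and Sdc2 6.06% ± 0.97 (SD, n = 3). The log2 ratio of Sdc3 to Sdc2 per kb was 3.23 ± 0.29 (SD, n = 3), a 9.36-fold difference, and that of Sdc4 to Sdc3 was -1.83 ± 0.24. By this length Sdc4 was below Sdc1 in each mouse, by log2 ratios of -0.51, -0.65 and -0.23. With other lengths this direction turned in mouse 3. Sdc4 then took 20.8% against 19.7% for Sdc1 over all annotated exons, and 16.7% against 14.5% over coding sequence. The annotation used for lengths extends the 3′ end of Sdc3 beyond the gene stop of the deposited table, where reads could not be counted. Per kb of the 4973 bases inside the deposited gene bounds, a length chosen after seeing the data, Sdc3 had 552 ± 24.6 normalized counts per kb (SD, n = 3) in place of 363, its share of the 4 syndecans was 65.4% ± 2.48, and 4 of the 10 members were in the top 10% per kb, whose limit was then 404.

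The glypicans were low. Gpc1 (ENSMUSG00000034220) encodes glypican-1, an endothelial heparan sulfate proteoglycan known from studies of flow sensing, at 92759367 to 92788501 of chromosome 1 (plus strand), with 9 exons. Its normalized counts were 479, 371 and 386, a mean of 412 ± 58.5 (SD, n = 3), with mouse 1 highest. Gpc6 (ENSMUSG00000058571) encodes glypican-6 at 117162727 to 118213956 of chromosome 14 (plus strand), with 10 exons. It was close to the floor of the table, with 13, 20 and 44 normalized counts and a mean of 25.7 ± 16.3 (SD, n = 3). These values rest on about 13, 19 and 46 reads, and the CV of 63.3% compares with 19.7% from counting alone. Without mouse 3 the mean was 16.5 normalized counts, or 2.55 per kb.

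Per kb of canonical transcript, Gpc1 had 51.3 ± 7.29 normalized counts per kb (SD, n = 3) and Gpc6 had 3.97 ± 2.51. The log2 ratio of Gpc1 to Gpc6 per kb was 3.87 ± 1.04 (SD, n = 3), with values of 4.89, 3.9 and 2.82 in mice 1, 2 and 3. Gpc4, a paralog outside the members, had 472, 412 and 436 normalized counts and exceeded Gpc1 per kb in each of the 3 mice, with a log2 ratio of Gpc1 to Gpc4 of -0.67 ± 0.11 (SD, n = 3). Of the 6 glypican genes, 5 were in the table. Gpc4 made up 57.0% ± 1.35 and Gpc1 35.8% ± 2.65 of their level per kb of canonical transcript, and Gpc2, Gpc3 and Gpc6 at most 4.72% each in any mouse. Over coding sequence Gpc4 and Gpc1 were nearly equal, with 49.3% ± 1.16 and 46.0% ± 2.78 and a mean log2 ratio of Gpc1 to Gpc4 of -0.10. In mouse 1 Gpc1 was then above Gpc4, with 49.0% against 48.3%. Gpc2 and Gpc3 had means of 7.0 and 9.0 normalized counts. Gpc5 was not listed in the table, which holds no gene with all values below 4. Within the deposited gene bounds the level of Gpc1 was 98.7 ± 14.0 normalized counts per kb (SD, n = 3) and that of Gpc6 was 7.36 ± 4.66, both over 1.5 times the values by whole transcript.

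**Figure D2:**
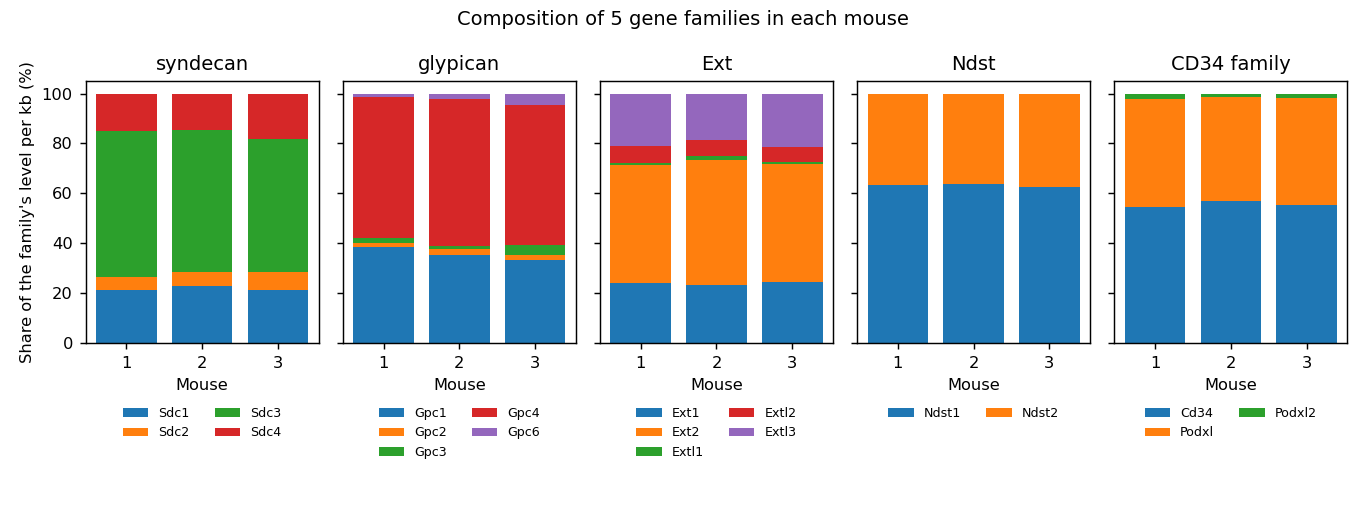
Share in percent of the level per kb of canonical transcript that each gene took within its family, with 1 bar per mouse. Sdc3 took between 53.3% and 58.6% of the syndecans, and Ndst1 between 62.4% and 63.7% of the listed N-deacetylase/N-sulfotransferases.

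The heparan sulfate enzymes were present at levels between those of the sialomucins and the glypicans. Ext1 (ENSMUSG00000061731), a glycosyltransferase of the chain polymerase, lies at 52927434 to 53209555 of chromosome 15 (minus strand) and has 11 exons. Its normalized counts of 1331, 1241 and 1365 gave a mean of 1312 ± 64.1 (SD, n = 3), a CV of 4.88%. Ndst1 (ENSMUSG00000054008), which removes acetyl groups from the chain and adds sulfate in their place, lies at 60817566 to 60881722 of chromosome 18 (minus strand) and has 15 exons. It had 1724, 1608 and 1824 normalized counts, a mean of 1719 ± 108 (SD, n = 3). Mouse 2 was lowest for both genes and mouse 3 highest.

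Per kb of canonical transcript, Ndst1 had 264 ± 16.6 normalized counts per kb (SD, n = 3) and Ext1 had 170 ± 8.31. Ext2, the partner of Ext1 in the polymerase, had 988, 1022 and 1008 normalized counts, and the log2 ratio of Ext1 to Ext2 per kb was -0.95, -1.10 and -0.94. This direction turned with the length used, to 1.10 over all annotated exons and 0.33 over coding sequence. Among the 5 genes of the EXT family, Ext2 made up 48.1% ± 1.77 of the level per kb of canonical transcript and Ext1 24.1% ± 0.61 (SD, n = 3). Extl3, an initiating transferase, made up 20.3% ± 1.47, Extl2 6.47% ± 0.41 and Extl1 1.09% ± 0.20. With the other lengths, added after seeing the data for these shares, Ext1 took the larger part, with 41.7% ± 0.30 against 19.4% ± 1.13 for Ext2 over all annotated exons and 31.9% ± 0.56 against 25.4% ± 1.25 over coding sequence (SD, n = 3), so neither gene is placed first. Of the 4 Ndst genes, Ndst1 and Ndst2 were listed and Ndst3 and Ndst4 were not. Ndst1 exceeded Ndst2 per kb by log2 ratios of 0.78, 0.81 and 0.73. The shares of Ndst1 and Ndst2, 63.1% and 36.9%, had an SD of 0.67 percentage points over the mice.

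Summed by role, the 3 sialomucins had 1935 ± 44.4 normalized counts per kb (SD, n = 3), the 3 syndecans 506 ± 44.8, the 2 enzymes 434 ± 24.8 and the 2 glypicans 55.3 ± 6.19. The closest were syndecans and enzymes, with sums of 469 to 556 and 408 to 457 per kb over the mice, and the ranges of the roles did not overlap. Ordered per kb of canonical transcript the genes were Cd34, Podxl, Emcn, Sdc3, Ndst1, Ext1, Sdc4, Gpc1, Sdc2 and Gpc6, over a 211-fold range. In each of the 9 pairs of neighbours the means differed by more than the larger SD. The order held in all 3 mice for every neighbouring pair but Gpc1 and Sdc2, whose log2 ratio was 0.87, 0.38 and -0.07. Within the deposited gene bounds, Sdc3 moved above Emcn (log2 ratio of Emcn to Sdc3 -0.24 in place of 0.34), and Sdc4 and Gpc1, with 109.1 ± 23.0 and 98.7 ± 14.0 per kb (SD, n = 3), differed by less than the larger SD. Over all annotated exons Cd34 was the fifth gene with 172 per kb, after Podxl with 625, Sdc3 with 311, Emcn with 183 and Ndst1 with 178. Over coding sequence Podxl with 2284 per kb and Sdc3 with 2070 were above Cd34 with 1798 and Emcn with 1543. Under each of these lengths Sdc4, Gpc1, Sdc2 and Gpc6 had the lowest means, in this order, although over coding sequence Gpc1 with 247 and Sdc2 with 241 per kb differed by less than the larger SD. Ratios of 18 pairs of genes, per kb of canonical transcript, were tested by an exact sign-flip permutation test over mice, two-sided. Of these, 17 had the same sign in all 3 mice with an exact p = 0.25, the smallest that 3 mice allow, or 0.26 after Benjamini-Hochberg adjustment over the 18, so no pair can reach 0.05. Gpc1 and Sdc2 had an exact p = 0.5.

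**Figure D3:**
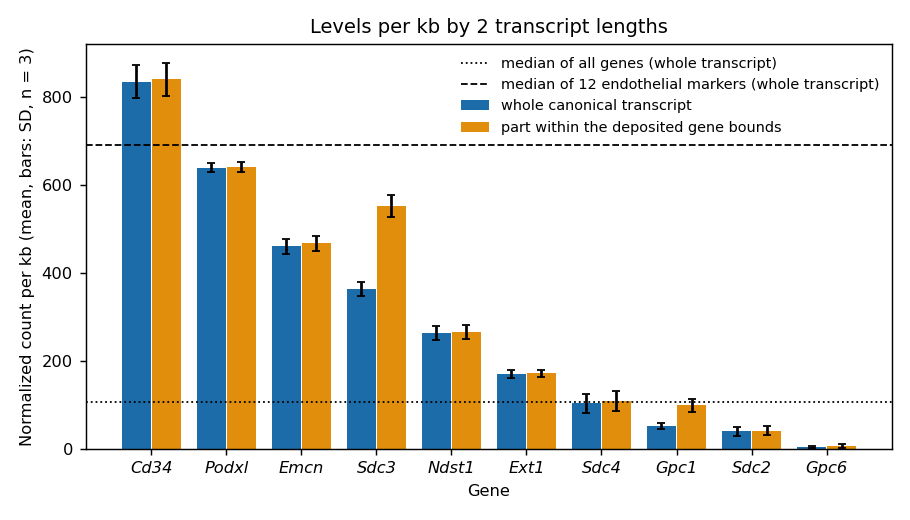
Mean normalized count per kb with SD over 3 mice as bars, by the whole canonical transcript (blue) and by its part inside the deposited gene bounds (orange). The dashed line is the median of the 12 endothelial markers, 690 per kb, and the dotted line the median of all genes, 106 per kb, both by whole transcript; Sdc3 is at 363 per kb by the first length and at 552 by the second.

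The spread between mice divided the genes by level. The CV was below 10% in 6 members, namely Podxl, Emcn, Cd34, Sdc3, Ext1 and Ndst1, and was 14.2% for Gpc1, 21.1% for Sdc4, 24% for Sdc2 and 63.3% for Gpc6. Of the 8 members with a mean of at least 200, 1 had a CV over 20%, Sdc4, against 8.00% of the 9358 genes at or above this mean. The median CV of these 8 members was 4.67%, and that of all such genes was 7.37%. Counting alone would give a CV of 5.92% for Sdc4, 8.27% for Sdc2 and 4.92% for Gpc1, so the spread of these genes was larger than that of counting. The CV of Sdc4 and Sdc2 rests on mouse 3. Without it the CV was 4.23% for Sdc4 and 5.61% for Sdc2, and no member with a mean of at least 200 exceeded 20%. That of Gpc1 rests on mouse 1, without which it was 2.80%, against 17.97% without mouse 3.

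**Figure D4:**
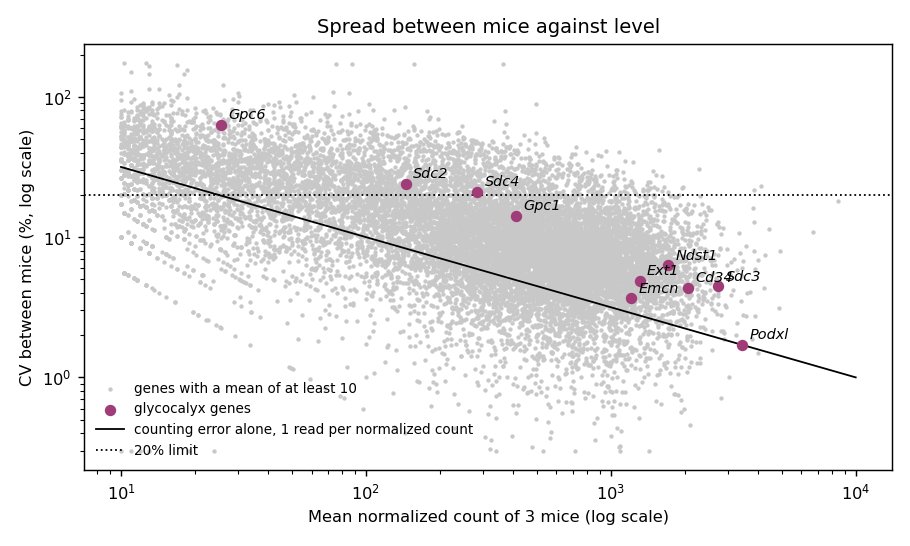
CV between the 3 mice in percent against the mean normalized count, both on log scales, for all genes whose mean reached 10 (grey, values under 0.3% drawn at 0.3%) and for the 10 genes (purple). The line is counting error at 1 read per normalized count; Podxl lies on it at 1.71%, and Gpc6, Sdc2 and Sdc4 lie above the dotted limit of 20%.

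Mouse 3 was highest for 6 of the 10 members, against 30.9% of the 14441 genes whose mean reached 10. Of the 78 other genes of the pathway lists described below that reached this mean, it was highest for 31. This comparison was made after the values had been seen. For Sdc3, Ext1 and Ndst1 mouse 3 was 1.06, 1.06 and 1.09 times the mean of the other 2 mice. For Sdc4 it was 1.41 times, for Sdc2 1.48 times and for Gpc6 2.67 times. Markers of other cell types were also unequal between mice. The 5 endocardial markers summed to 4920, 3940 and 7075 normalized counts in mice 1, 2 and 3, and each of them was highest in mouse 3. The 6 lymphatic endothelial markers summed to 3316, 4197 and 4840, with 3 of 6 highest in mouse 3, and the 8 fibroblast markers to 2881, 3444 and 3767, with 5 of 8. The fibroblast markers were divided, with Pdgfra, Dcn, Lum, Tcf21 and Dpt highest in mouse 3 and Col1a1, Col1a2 and Col3a1 highest in mouse 2. The 8 mural markers summed to 2512, 2594 and 2752, with 4 of 8 highest in mouse 3, namely Pdgfrb, Abcc9, Myh11 and Acta2. The smooth muscle genes Myh11 and Acta2 had 31, 118 and 240 and 67, 128 and 210 normalized counts. The other mural markers went otherwise, with Rgs5 (542, 615 and 505) and Cspg4 (134, 295 and 186) highest in mouse 2. Kcnj8 (138, 85 and 119) and Des (1005, 798 and 816) were highest in mouse 1. The 10 cardiomyocyte markers summed to 20679, 21339 and 24237, with 3 of 10 highest in mouse 3. These were Ttn (7379, 7743 and 10190), Ryr2 (3280, 3667 and 4486) and Tnnt2 (1309, 1382 and 1407). Myh6 was highest in mouse 2, and Actc1, Tnni3, Myl2, Myl3, Pln and Mb were lowest in mouse 3. The leukocyte markers summed to 447, 681 and 681, with 4 of 7 highest in mouse 3. The mesothelial markers summed to 941, 1191 and 1110, with 3 of 6, and most of each sum was Wt1, which was highest in mouse 2. The 12 endothelial markers summed to 31848, 30398 and 30917, with 2 of 12 highest in mouse 3. The part of these cell types in the levels of Sdc2, Sdc4 and Gpc6 was not tested.

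**Figure D5:**
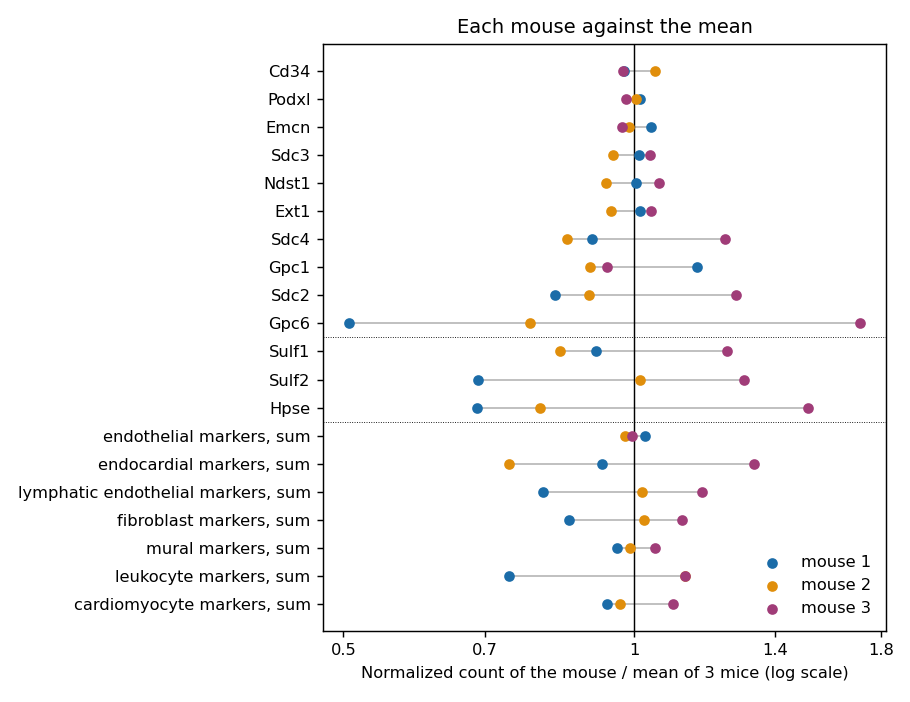
Value of each mouse divided by the mean of the 3 mice, on a log scale, for the 10 genes, the 3 enzymes that trim heparan sulfate and the summed markers of 7 cell types. Mouse 3 (purple) stands to the right for Sdc4, Sdc2 and Gpc6, for Sulf1, Sulf2 and Hpse and for the endocardial markers, whereas the endothelial markers lie close together.

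The wider pathway was read from 96 further genes in 11 lists, of which 87 had a row of their own, 8 were not listed and 1, St6galnac2, had a symbol shared by more than 1 row. Over these lists, 13 of the 78 whose mean reached 10 were in the top 10% per kb, against 10.0% of all genes, and 12 of the 66 whose mean reached 200 had a CV over 20%, against 8.00%. The lists below are given as counts with the genes of highest level, and all levels are normalized counts per kb of canonical transcript unless called normalized counts.

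Among other proteoglycans of the cell surface, 8 of 9 were listed and 1 was in the top 10% per kb, Thbd, which encodes the part-time proteoglycan thrombomodulin and had 558 ± 36.4 per kb (SD, n = 3). Nrp1, a VEGF co-receptor that can carry a glycosaminoglycan chain, had 366 ± 18.2 per kb and Tgfbr3, the betaglycan gene, 179 ± 26.2. No gene of this list with a mean of at least 200 had a CV over 20%. Among other sialomucins and mucin-type proteins all 8 were listed, but apart from Cd164, an endosomal and surface sialomucin at 350 ± 8.85 per kb, they were low. Pdpn, with 193, 312 and 264 normalized counts, had a CV of 23.4%, as 1 of the 2 genes of this list with a mean of at least 200. Podxl2, the third gene of the CD34 family, had 76, 47 and 67 normalized counts and took 1.81% ± 0.45 of the family's level per kb (SD, n = 3), against 55.6% ± 1.26 for Cd34 and 42.6% ± 0.81 for Podxl. The shares of Cd34 and Podxl turned to 21.4% ± 0.76 and 77.5% ± 0.50 over all annotated exons and to 43.7% ± 1.10 and 55.5% ± 0.92 over coding sequence, and Podxl2 then averaged at most 1.12%.

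All 9 secreted and matrix proteoglycans were listed. Bgn, which encodes biglycan, had 573 ± 54.9 per kb (SD, n = 3) and Srgn, the serglycin gene, 428 ± 33.6, and both were in the top 10%. Hspg2, which encodes the basement membrane proteoglycan perlecan, had the highest normalized counts of the list with 3250, 3469 and 4793, and was highest in mouse 3. The CV exceeded 20% in 4 of the 8 genes whose mean reached 200. These were Hspg2 with 21.8%, Col18a1 with 23.0%, Spock2 with 24.6% and Dcn with 26.8%, of which Dcn is also a fibroblast marker.

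All 7 genes of the linker that joins chain and protein were listed. B3gat3, which adds the glucuronic acid of the linker, had 325 ± 22.7 per kb (SD, n = 3) and Fam20b, the xylose kinase, 240 ± 9.75. Of the starting xylosyltransferases, Xylt2 had 154 ± 16.8 per kb and Xylt1 23.8 ± 4.76, and Xylt1, with 187, 203 and 270 normalized counts, was the only gene of this list with a CV over 20% among the 5 with a mean of at least 200. Of 18 genes for sulfation, epimerisation and sulfate supply, 13 were listed. Papss1 and Papss2, which make the sulfate donor, had 367 ± 16.6 and 353 ± 40.9 per kb, and the donor's transporter Slc35b2 had 255 ± 10.3. The epimerase Glce had 172 ± 22.7 per kb, the 6-O-sulfotransferase Hs6st1 166 ± 9.88 and the 2-O-sulfotransferase Hs2st1 123 ± 3.25. Of the 3-O-sulfotransferases, Hs3st1 was highest with 157 ± 11.4 per kb. Hs3st3b1 had 264, 161 and 292 normalized counts, a CV of 28.9%, while Hs3st3a1, Hs3st4 and Hs3st5 had means between 4.67 and 8.33 normalized counts and Hs3st2 and Hs3st6 were not listed.

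Of the 4 genes that trim finished heparan sulfate, 3 were listed, and all 3 were highest in mouse 3. Sulf1, an extracellular 6-O-endosulfatase, had 481, 442 and 658 normalized counts, and its paralog Sulf2 had 337, 496 and 636. The heparanase gene Hpse had 105, 122 and 231. Both Sulf genes had a CV over 20% (21.8% and 30.6%), and Hpse had a CV of 44.8% at a mean of 153 normalized counts. Among the shedding proteases, which cut syndecan ectodomains, Adam10 had 385 ± 11 per kb (SD, n = 3), Adamts1 327 ± 46.0 and Adam17 261 ± 7.18. The CV was below 3% for Adam10 and Adam17 and 14.1% for Adamts1. Mmp14 had 343, 568 and 462 normalized counts.

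Of 7 genes for hyaluronan, the unsulfated chain of the glycocalyx, 6 were listed. Hyal2, a hyaluronidase anchored to the cell surface, had 450 ± 11.3 per kb (SD, n = 3) and was in the top 10%, and Cemip2, whose product is implicated in hyaluronan degradation, had 182 ± 23.6. Of the synthases, Has3 had 318, 192 and 235 normalized counts, Has1 had 1, 2 and 7, and Has2 was not listed. All 14 genes of sialic acid and O-glycan synthesis with a row of their own had a mean of at least 200 normalized counts, and 13 of them had a CV of at most 20%. St6galnac4, a sialyltransferase of O-glycans, had 419 ± 7.02 per kb and Cmas, which activates sialic acid, 379 ± 15.1. The exception was Gcnt1, which branches mucin-type O-glycans, with 290, 246 and 473 normalized counts and mouse 3 highest.

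The cytosolic partners of these proteins had the lowest median CV of the 11 lists, with no CV over 20% among 9 genes and a median of 3.59%. Slc9a3r2, a PDZ scaffold that binds podocalyxin, had 1818, 1818 and 1794 normalized counts and 843 ± 6.46 per kb (SD, n = 3), close to Cd34. The list also includes Msn with 593 ± 24.9 per kb, Rdx with 429 ± 6.87 and Ezr with 182 ± 5.57, which encode proteins that tie membrane proteins to actin. Sdcbp, the gene of the syndecan-binding scaffold syntenin, had 564 ± 48.9 per kb and Gipc1, a PDZ protein that binds syndecan-4, had 450 ± 5.3. In all, 5 of the 9 genes were in the top 10% per kb.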

How the data were processed

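RNA on tagged ribosomes of 3 EC-RiboTag hearts was read single-end over 72 bases. The deposited values are a score: according to the methods, the authors trimmed reads with Trimmomatic 0.39, aligned them with STAR 2.7.11a to mm39, discarded duplicates (Picard 3.1.1) and reads that mapped to several places, to rRNA or to mitochondria, counted exonic reads on the correct strand with featureCounts 2.0.4, divided by DESeq2 (1.36.0) size factors and rounded. Raw counts were not used here, so no count model was fitted.

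Each library's column was matched by its title, and the labels call the libraries biological replicates. The members and lists were chosen with earlier results of these data known. Named genes were the members, their paralogs, the highest genes per kb of each list and those with a CV over 20%. Named outside this rule, after their values were seen, were Ezr, Has1, Hpse, Slc35b2, Glce and the listed Hs2st, Hs3st and Hs6st1 genes. Genes of similar pattern were not sought, since 3 libraries of 1 condition are too few.

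Levels per kb used Ensembl canonical transcripts of GENCODE M39 (GRCm39), which held 17475 of the 17583 identifiers (99.4%). This annotation is newer than the authors' and extends some 3′ ends. At most 0.97% of a member's windows of 72 bases recurred in transcripts of genes elsewhere, and no member shared exonic bases with another gene on its strand. The worth of 1 read was estimated from empty and doubled whole numbers between 5 and 120, as 0.977, 1.06 and 0.961 normalized counts. Ratios within mice were tested by exact sign-flip permutation. Alternatives were other scalings (trimmed means of log ratios with 30% and 5% trimmed, equal totals), lengths, filters, limits, a pseudocount of 1, and leaving out each mouse. Scripts were tested on simulated data. Python 3.11.15, numpy 2.4.6, pandas 2.3.3 and matplotlib 3.10.9 were used.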

Additional observations from a re-analysis of the deposited data

How the results depend on the processing

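Rescaling by trimmed means or to equal totals moved no level, rank or CV of the 10 genes beyond the spread between mice. Transcript length moved most. Over all annotated exons, the summed levels per kb were 981 for sialomucins, 430 for syndecans, 339 for enzymes and 45.0 for glypicans. Over coding sequence they were 5625, 2791, 1236 and 262, and within the deposited gene bounds, added after seeing the data, syndecans had 703 and glypicans 106. Of 126 recomputed log2 ratios, each a mean over mice, 8 changed sign. They are Podxl to Cd34 (1.86 over exons, 0.35 over coding sequence), Emcn to Cd34 (0.088 over exons), Ext1 to Ext2 (1.10 and 0.33) and Emcn to Sdc3 (-0.76, -0.42, and -0.24 within the bounds). Each of the 8 arose where only the transcript length was changed, and none with a mouse left out or a pseudocount of 1. Which length fits the transcripts made in these cells was not tested. Between 2 (Podxl and Sdc3, over exons) and 4 members were in the top 10% per kb. With mouse 1 or mouse 2 left out, 1 of 8 members with a mean of at least 200 had a CV over 20%. The shares of all such genes were then 4.84% of 9396 and 9.86% of 9339. Without mouse 3 it was 0 of 8 members, against 8.71% of 9320 genes. From a mean of at least 100 it was 2 of 9 members, against 11.6% of 10951 genes. No comparison of conditions, paired or not, was possible because the libraries form 1 group. Depth limits Gpc6 and the other genes with a mean below 30 normalized counts.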
